A study of Mus musculus with 48 samples.

Results

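Cadherins and protocadherins were followed in single-cell RNA sequencing counts of the mouse hypothalamus, in control embryos and in embryos that lack *Eed* in the central nervous system. The genes were taken by name: all genes of the count table named Cdh or Pcdh and followed by a number, or by the letters of the alpha, beta or gamma cluster, with at least 30 UMIs (unique molecular identifiers, each standing for 1 captured mRNA molecule) over all cells. Of 72 such names, 57 reached 30 UMIs, out of 16510 genes in the table, and the other 15 were not followed. *Cdh24* with 30, *Pcdha3* with 32 and *Cdh26* with 33 UMIs were just inside, and *Pcdhga6* with 25 and *Pcdha12* with 24 just outside. The 57 genes were 17 classical cadherins (5 of type I and 12 of type II), 3 other cadherins, 25 clustered protocadherins (5 alpha, 18 beta and 2 gamma) and 12 non-clustered protocadherins (9 of the delta family and 3 others).

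The study asked how Polycomb repressive complex 2, of which Eed is a core subunit, acts on the making of hypothalamic cell types. Both groups were homozygous for the floxed *Eed* allele. Control embryos (*Eed* fl/fl) carried no Cre, and *Eed-cKO* embryos (*Eed* fl/fl with *Sox1-Cre*/+) also had a Cre inserted into the *Sox1* locus, which acts in the whole developing central nervous system. The study took non-neural cells, such as vascular cells and microglia, as not targeted by this Cre. The stock was a mixed B6:129S1 background, and the hypothalamus was dissected at E18.5, shortly before birth, and divided into pieces, so that several libraries came from 1 embryo. There were 6 control embryos (2 female, 4 male) in 22 libraries and 9 *Eed-cKO* embryos (5 female, 4 male) in 26 libraries. The 4 control and 6 *Eed-cKO* litters shared no litter, so litter and genotype cannot be told apart, and the p-values measure the spread between embryos.

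Classical cadherins are calcium-dependent adhesion proteins that bind the same cadherin on the neighbouring cell and are anchored to actin through catenins. Protocadherins have related extracellular repeats but other cytoplasmic tails. The clustered ones are switched on in varied combinations in single neurons and give them a surface identity, and the delta ones guide axons and shape synapses in particular groups of neurons. In the developing brain, cadherins of both kinds help neurons of 1 kind to sort together into nuclei.

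The table held 14121 cells, 7186 from control and 6935 from *Eed-cKO* embryos, with 1042 to 1664 and 217 to 1111 cells per embryo and a median of 4731 and 4377 UMIs per cell. Summed per embryo, depth was 5363119 to 7487417 UMIs in control and 658175 to 6299181 in *Eed-cKO*, so the smallest *Eed-cKO* sums carry the widest counting error. Of 14019 distinct barcodes, 101 occurred in more than 1 library. Clusters were named from cell type markers, and no cadherin or protocadherin entered the clustering. This gave 5194 control and 4696 *Eed-cKO* neuron-like cells, 519 and 958 astrocyte-, ependymal- and cycling progenitor-like cells (called glia and progenitors, or glia, here), and 349 and 527 non-neural cells of endothelial-, pericyte-, vascular leptomeningeal- and microglia-like clusters. *Eed* itself was 30.3 CPM (UMIs of the gene per 1000000 UMIs of these cells) in control and 23.1 CPM in *Eed-cKO* neurons on average. Its fitted log2 change was -0.42 in neurons (edgeR, adjusted p = 0.00258), -0.73 in glia (adjusted p = 0.0453) and -0.76 in non-neural cells (adjusted p = 0.401). The floxed exons lie upstream of the 3′ end that was sequenced, so its level does not check the labels. The summed level of 34 *Hox* genes, which Polycomb keeps silent in the forebrain, was 0 to 0.376 CPM in neurons of control embryos and 391 to 627 CPM in those of *Eed-cKO* embryos. In non-neural cells it was 0 to 5.78 CPM and 35.5 to 179 CPM, and the source of these counts was not tested. Cell make-up moved with genotype too: cluster 0, led by *Tfap2b* and *Hoxc10*, held 0.545% ± 0.442 (SD, n = 6) of control and 35.4% ± 6.33 (SD, n = 9) of *Eed-cKO* neurons. Clusters 15 (1525 control and 262 *Eed-cKO* cells) and 23 (329 and 25 cells) were skewed towards control, and the astrocyte-like cluster 16 (10 and 436 cells) towards *Eed-cKO*.

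Levels below are CPM of counts summed over the neurons, glia or non-neural cells of 1 embryo, scaled by TMM (trimmed mean of M-values). Each UMI is 1 molecule tagged at its 3′ end, so the level is not divided by gene length. In control neurons the 57 genes together took 1723 to 2320 CPM (median 2065), and in *Eed-cKO* neurons 1263 to 1580 CPM (median 1508), so the groups did not overlap. Delta and other non-clustered protocadherins made up 60.5% of these UMIs in control neurons, classical cadherins 26.4%, clustered protocadherins 8.54% and other cadherins 4.58%. The summed level of the non-clustered protocadherins was 1005 to 1432 CPM (median 1212) in control and 696 to 907 CPM (median 843) in *Eed-cKO* neurons. For the classical cadherins it was 481 to 592 CPM (median 548) and 369 to 455 CPM (median 420), and for the clustered protocadherins 148 to 198 CPM (median 177) and 81.7 to 154 CPM (median 129). The sums of the non-clustered protocadherins and of the classical cadherins did not overlap between genotypes, and those of the clustered genes did at their edge. In bulk sums over a class of cells, fewer cells of a kind and less RNA per cell cannot be told apart.

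**Figure D1:**
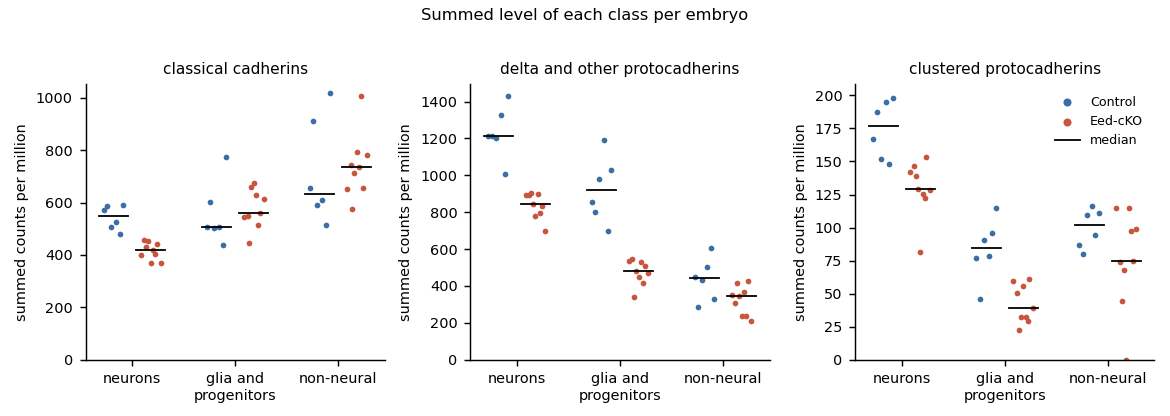
Summed level (CPM, linear axis from 0) of classical cadherins, clustered protocadherins and non-clustered protocadherins in neurons, glia and progenitors, and non-neural cells, each point 1 embryo (6 control in blue, 9 *Eed-cKO* in red) and each line the median. In neurons all 9 *Eed-cKO* embryos lie below all 6 control embryos for non-clustered protocadherins (at most 907 against at least 1005 CPM) and for classical cadherins (at most 455 against at least 481 CPM).

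In neurons, the expression of this gene family was lower in *Eed-cKO* embryos. Of 39 members with enough counts to be tested, 22 fell and 1 (*Cdh22*) rose in *Eed-cKO* neurons (edgeR quasi-likelihood test, Benjamini-Hochberg adjusted p under 0.05 over all genes tested). Over all 11937 genes tested, 15.6% were called, 7.51% as lower and 8.11% as higher, and 1.57% had *Eed-cKO* embryos that all lay below the control embryos. The fitted change was below 0 for 37 of the 39, with a median log2 fold change of -0.45, against 0.003 over all genes tested. In 7 members all 9 *Eed-cKO* embryos lay below all 6 control embryos: *Pcdh17*, *Pcdh10*, *Pcdh20*, *Pcdh15*, *Cdh9*, *Cdh11* and *Pcdhb22*. With library size alone as scaling, 22 members were called, 21 of them lower, while the share of higher calls among all genes called went from 51.9% to 62.1%. Markers of other cell types moved with genotype in the neurons as well: 4 of 5 tested astrocyte markers (sum 160 to 192 CPM in control, 205 to 262 CPM in *Eed-cKO*) and 3 of 5 tanycyte markers (61.5 to 110 and 104 to 161 CPM) were higher, and 2 of 10 neuron markers lower (8557 to 9202 and 8124 to 8636 CPM), and their part in the changes was not tested. The 18 members that could not be tested in neurons were too low there: all 5 alpha and both gamma genes, *Pcdhb10*, *Pcdhb11*, *Pcdhb15*, *Pcdh1*, *Pcdh12*, *Cdh1*, *Cdh3*, *Cdh5*, *Cdh6*, *Cdh24* and *Cdh26*.

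**Figure D2:**
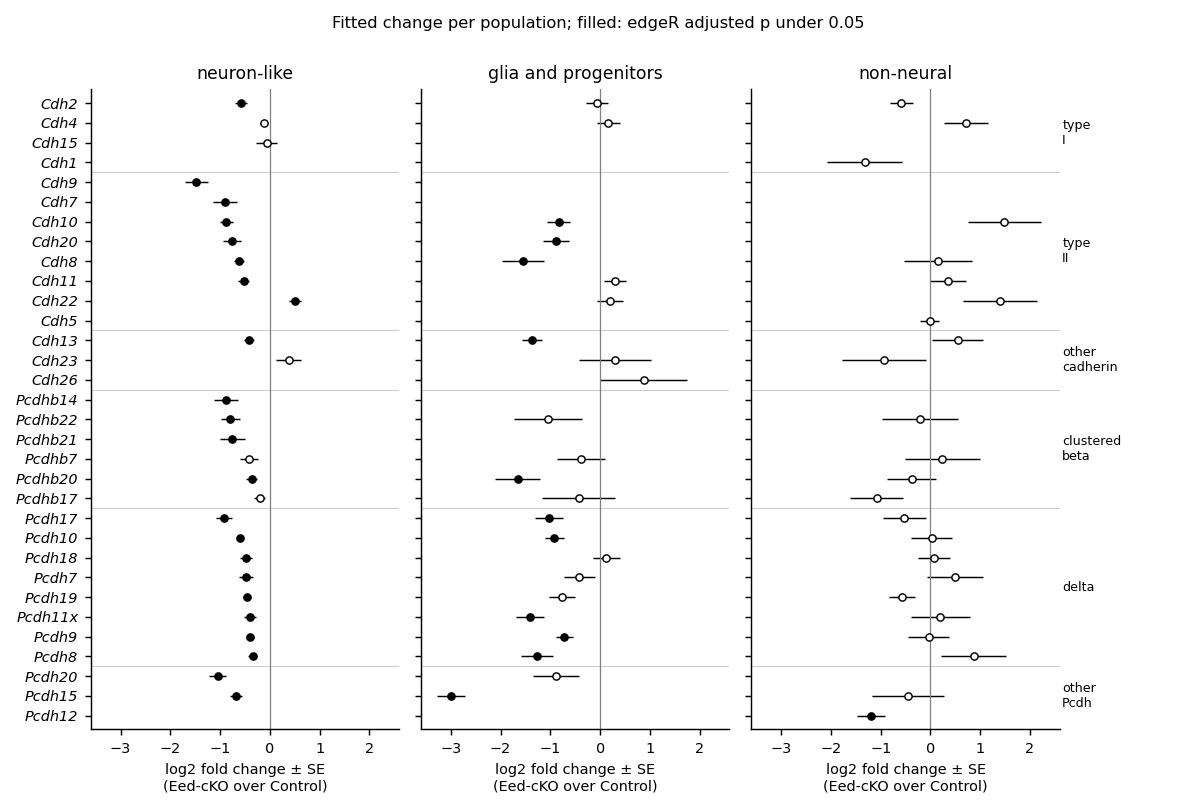
Log2 fold change (*Eed-cKO* minus control, bars 1 SE) fitted by edgeR for the members named in the text by rule, where tested, in neurons, glia and progenitors, and non-neural cells, grouped by class, with filled points for adjusted p under 0.05. *Cdh1* in glia, which was called, is left out because all control embryos were at 0. In neurons the called points run from -1.48 (*Cdh9*) to -0.35 (*Pcdh8*), with *Cdh22* alone above 0 at 0.51.

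All 8 delta protocadherins that could be tested fell in *Eed-cKO* neurons, by fitted log2 changes from -0.92 to -0.35 with a median of -0.47. *Pcdh19*, an X-linked gene whose loss causes epilepsy in girls and whose protein pairs with N-cadherin, had the highest level of the family. It was 269 to 379 CPM (median 354) in control and 187 to 294 CPM (median 246) in *Eed-cKO* neurons, a log2 change of -0.46 ± 0.09 (SE; adjusted p = 5.73e-04), with overlapping embryos. *Pcdh10*, which recruits the WAVE actin regulator and steers growing axons, was 199 to 241 CPM (median 215) and 128 to 171 CPM (median 140), a log2 change of -0.60 ± 0.07 (SE; adjusted p = 5.80e-07). No *Eed-cKO* embryo reached the lowest control embryo. *Pcdh17*, a synaptic protocadherin that also keeps axons growing together, fell most of the delta genes. Its levels were 151 to 347 CPM (median 195) and 62.5 to 142 CPM (median 120), again without overlap, for a log2 change of -0.92 ± 0.16 (SE; adjusted p = 1.99e-04).

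The other delta members moved by less than *Pcdh10* and *Pcdh17*, and their embryos overlapped. *Pcdh9*, a delta-1 protocadherin of many brain regions, went from 132 to 180 CPM (median 175) in control to 109 to 145 CPM (median 126) in *Eed-cKO* neurons (log2 change -0.39 ± 0.08 SE, adjusted p = 9.87e-04). The second X-linked member, *Pcdh11x*, was 82.2 to 106 CPM (median 94.5) and 48.1 to 96.1 CPM (median 77.1), at -0.40 ± 0.12 (SE; adjusted p = 0.029), a call that was lost without any 1 of 7 of the 15 embryos. *Pcdh8*, an activity-induced gene whose protein draws N-cadherin off the synapse, was 67.1 to 84.7 CPM and 51.6 to 87.7 CPM (-0.35 ± 0.08 SE, adjusted p = 0.00493). Its highest embryo of all was *Eed-cKO* embryo 9. *Pcdh18* fell by 0.48 and *Pcdh7* by 0.48 on the log2 scale (adjusted p = 0.00434 and 0.0214). The *Pcdh7* call was lost without control embryo 4 or 6. *Pcdh7*, *Pcdh8*, *Pcdh10* and *Pcdh19* share exonic bases with a gene on the opposite strand, and whether counting used the strand is not given in the sources used here.

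Both of the remaining non-clustered protocadherins that were tested fell without overlap between the genotypes. *Pcdh15*, known with *Cdh23* for the tip link of inner ear hair cells, was 36.1 to 57.5 CPM (median 43.9) in control and 18 to 34.6 CPM (median 29.6) in *Eed-cKO* neurons (log2 change -0.68 ± 0.12 SE, adjusted p = 2.86e-04). *Pcdh20* was 10.9 to 17.2 CPM (median 14.2) and 4.78 to 9.97 CPM (median 6.94), a log2 change of -1.05 ± 0.17 (SE; adjusted p = 8.17e-05). With these, 10 of 10 tested non-clustered protocadherins were called lower, where 7.51% of all genes tested were.

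**Figure D3:**
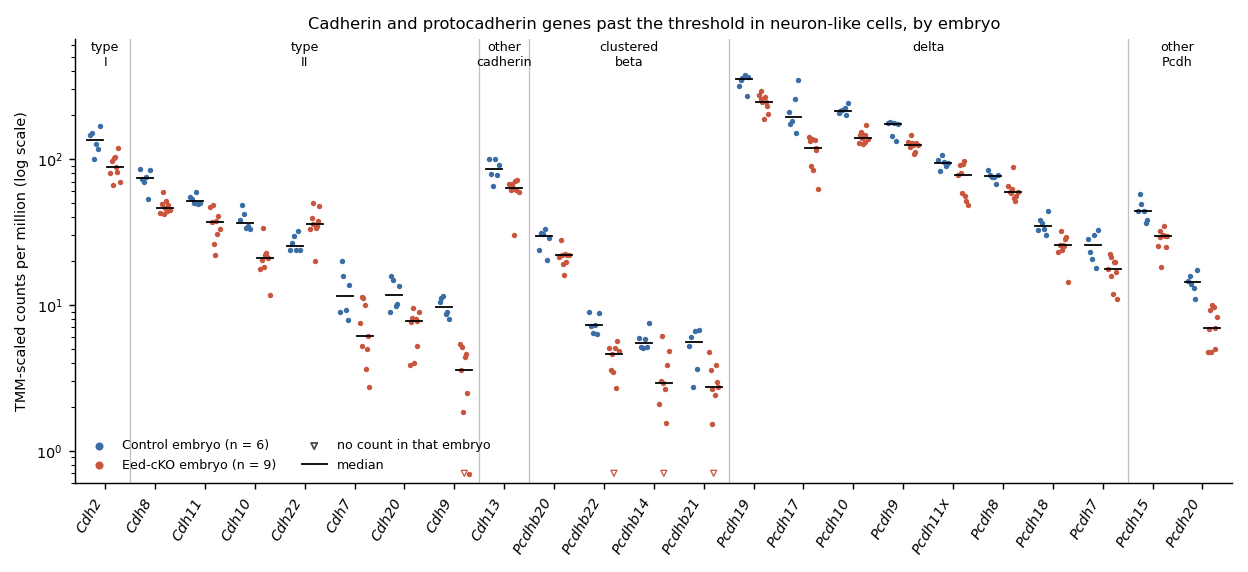
Level (CPM, log axis) per embryo in neurons of the 23 members called there, by class, each point 1 embryo (6 control in blue, 9 *Eed-cKO* in red), each line the group median and each open triangle an embryo with no count. For *Pcdh10* the *Eed-cKO* points end at 171 CPM and the control points begin at 199 CPM, and *Cdh22* is the gene for which 8 of 9 *Eed-cKO* points lie above all control points.

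Among the clustered protocadherins only beta genes could be tested. The alpha genes share their constant 3′ exons with one another and so do the gamma genes, so a 3′ tag cannot be assigned to 1 of them, and their summed levels in neurons were 0 to 7.66 CPM (alpha) and 0.632 to 2.70 CPM (gamma) over all 15 embryos. Beta genes each consist of 1 exon of their own. Of 18 members 15 were tested, 4 fell, and all 15 fitted changes were below 0, from -0.88 to -0.16 with a median of -0.42. *Pcdhb20*, the highest of them, was 20.5 to 33.3 CPM (median 29.8) in control and 15.9 to 28.0 CPM (median 21.9) in *Eed-cKO* neurons, at -0.37 ± 0.11 on the log2 scale (SE; adjusted p = 0.030). *Pcdhb22* was 6.31 to 8.91 CPM and 0 to 5.70 CPM without overlap (-0.79 ± 0.20 SE, adjusted p = 0.00668). *Pcdhb14* was 5.03 to 7.47 CPM and 0 to 6.13 CPM (-0.88 ± 0.23 SE, adjusted p = 0.0114), and *Pcdhb21* was 2.75 to 6.78 CPM and 0 to 4.78 CPM (-0.75 ± 0.26 SE, adjusted p = 0.0461). *Pcdhb21* and *Pcdhb22* overlap in exonic bases on 1 strand, so reads of either can count for the other. *Pcdhb17* and *Pcdhb7*, next in level to *Pcdhb20*, had fitted log2 changes of -0.20 (adjusted p = 0.240) and -0.42 (adjusted p = 0.136) and were not called. The calls of *Pcdhb21* and *Pcdhb20* were lost in 12 and 7 of the 15 sets that leave out 1 embryo.

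The type II cadherins, which neurons use in many pairings to sort into nuclei and to match synaptic partners, held both the largest fall and the one rise among the members tested. Of 9 tested, 6 fell and 1 rose, with a median log2 change of -0.62. *Cdh9*, which specifies synapses of particular neuron types, was 7.99 to 11.4 CPM (median 9.69) in control and 0 to 5.38 CPM (median 3.57) in *Eed-cKO* neurons. The log2 change was -1.48 ± 0.23 (SE; adjusted p = 5.07e-05), with no overlap. *Cdh10* was 33.2 to 48.6 CPM (median 36.4) and 11.7 to 33.7 CPM (median 21), at -0.88 ± 0.13 (SE; adjusted p = 3.48e-05), and 1 *Eed-cKO* embryo reached the control range. *Cdh8* was 53.0 to 84.9 CPM (median 73.8) and 42.2 to 59.7 CPM (median 45.8), at -0.62 ± 0.10 (SE; adjusted p = 6.50e-05). *Cdh11*, also a cadherin of bone and mesenchyme, was 49.5 to 59.7 CPM (median 51.8) and 21.9 to 48.0 CPM (median 37.1), at -0.53 ± 0.11 (SE; adjusted p = 0.00174). Its embryos did not overlap.

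Some of the lower type II genes lie near one another. *Cdh7* and *Cdh20*, both on chromosome 1, fell by 0.90 and 0.76 on the log2 scale (adjusted p = 0.0132 and 0.00506), although without control embryo 2 *Cdh7* was not called. *Cdh9* and *Cdh10* share chromosome 15 with *Cdh12* (-0.23, adjusted p = 0.323) and *Cdh18* (-0.20, adjusted p = 0.721), which were not called over all neurons, and with *Cdh6*, which was too low to test.

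*Cdh22*, a brain cadherin of type II, was the only tested member called higher in neurons. It was 23.8 to 32.3 CPM (median 25.2) in control and 19.9 to 49.9 CPM (median 35.7) in *Eed-cKO* neurons, a log2 change of 0.51 ± 0.12 (SE; adjusted p = 0.00391). In 8 of the 9 *Eed-cKO* embryos it lay above all control embryos, and in embryo 9, which had the fewest neuron UMIs, below them all. When the filter on low counts was dropped, *Cdh3* was called higher in neurons too (log2 change 4.05 ± 0.65 SE, adjusted p = 6.39e-05, edgeR). *Cdh3* was 0 to 0.347 CPM in control and 0 to 2.75 CPM in *Eed-cKO* neurons.

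Of the type I cadherins, 1 of 3 tested fell. *Cdh2*, N-cadherin, which holds the neural epithelium and young synapses together, was 99.8 to 168 CPM (median 136) in control and 66.4 to 119 CPM (median 87.9) in *Eed-cKO* neurons, a log2 change of -0.58 ± 0.11 (SE; adjusted p = 0.00101). Its close relative *Cdh4*, R-cadherin, was at a like level but moved little: 139 to 163 CPM (median 153) and 110 to 164 CPM (median 137), at -0.12 ± 0.08 (SE; adjusted p = 0.310). *Cdh15*, M-cadherin of muscle, had medians of 7.76 and 7.97 CPM and a fitted change of -0.06 (adjusted p = 0.875). The difference between the changes of these genes was not tested. Of the other cadherins, *Cdh13*, which is held in the membrane by a lipid anchor and has no cytoplasmic tail, fell from 65.5 to 100 CPM (median 85.2) to 29.9 to 71.3 CPM (median 63.7), at -0.42 ± 0.10 (SE; adjusted p = 0.00747). *Cdh23*, the other tip link protein, was 5.20 to 13.9 CPM and 5.24 to 20.9 CPM and was not called (0.38 ± 0.25 SE, adjusted p = 0.333).

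The promoters of 4 members are shown because they belong to the gene that rose and to the 3 largest falls without overlap for which a sequence was at hand. Each is 300 bases from RefSeq (build GRCm38.p6), 250 before and 50 after the start of the gene, 5′ to 3′ on the strand of the gene, with every CG dinucleotide in capitals. CG reads the same on both strands. Of 32851 such promoters of 27025 genes, 94.6% hold at least 1 CG, with a median of 7 and quartiles of 3 and 20, and 22 of the 57 members had an entry. *Cdh22* lies at chr2:165234688-165234987 (minus strand) and holds 38 CG, a number reached by 4.95% of all promoters. *Pcdh17* at chr14:84443313-84443612 (plus strand) holds 26, reached by 16.9%. *Cdh9* at chr15:16728665-16728964 (plus strand) holds 8, reached by 48.7%, and *Pcdh20* at chr14:88471347-88471646 (minus strand) holds 4, reached by 68.6%. The gene that rose thus had more CG in this window than the other 3, and the 3 that fell ranged from few to many. These counts describe the letters of the windows only.
Cdh22: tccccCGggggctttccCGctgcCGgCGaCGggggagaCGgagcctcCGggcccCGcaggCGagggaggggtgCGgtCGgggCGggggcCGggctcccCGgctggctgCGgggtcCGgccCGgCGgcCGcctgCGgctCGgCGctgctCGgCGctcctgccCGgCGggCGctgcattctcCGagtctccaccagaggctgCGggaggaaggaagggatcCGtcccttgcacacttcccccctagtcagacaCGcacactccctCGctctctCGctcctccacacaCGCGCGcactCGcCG
Pcdh17: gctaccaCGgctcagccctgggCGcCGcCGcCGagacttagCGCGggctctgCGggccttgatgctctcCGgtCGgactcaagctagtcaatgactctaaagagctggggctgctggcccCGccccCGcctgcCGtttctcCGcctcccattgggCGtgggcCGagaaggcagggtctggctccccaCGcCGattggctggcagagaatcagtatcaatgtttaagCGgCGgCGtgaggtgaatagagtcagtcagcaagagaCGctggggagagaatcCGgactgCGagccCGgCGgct
Cdh9: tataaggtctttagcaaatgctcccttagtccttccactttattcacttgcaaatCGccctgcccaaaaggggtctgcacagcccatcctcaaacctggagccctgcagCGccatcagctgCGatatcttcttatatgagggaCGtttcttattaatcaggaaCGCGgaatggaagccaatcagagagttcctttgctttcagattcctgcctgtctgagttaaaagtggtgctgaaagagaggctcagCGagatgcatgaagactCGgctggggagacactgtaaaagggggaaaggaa
Pcdh20: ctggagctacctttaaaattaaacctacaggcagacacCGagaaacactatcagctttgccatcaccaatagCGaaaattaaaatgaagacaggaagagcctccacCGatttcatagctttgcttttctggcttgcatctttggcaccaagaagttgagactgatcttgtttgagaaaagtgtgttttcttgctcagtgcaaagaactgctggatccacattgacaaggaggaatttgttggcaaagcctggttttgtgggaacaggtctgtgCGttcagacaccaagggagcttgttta

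Neurons were next divided by the transmitter genes they carried. In neurons with *Slc17a6*, the glutamate transporter gene, and no *Slc32a1* UMI, 14 of 41 tested members were called (7.83% of all genes tested), 12 lower and 2 higher. The 2 higher ones were *Cdh22* at 0.53 (adjusted p = 0.0373) and *Cdh23* at 1.00 (adjusted p = 0.0365). In neurons with *Slc32a1*, the GABA transporter gene, and no *Slc17a6* UMI, 16 of 42 were called, all lower (9.18% of all genes tested). *Cdh12*, not called over all neurons, was among them (-1.14, adjusted p = 0.0303), and so was *Cdh9*. *Cdh9* had 41 of 7869209 UMIs in control and 1 of 2784304 in *Eed-cKO* embryos, with means of 5.30 and 0.263 CPM. The log2 changes there were -1.39 for *Pcdh17*, -1.27 for *Cdh8* and -0.95 for *Pcdh19*, and in the *Slc17a6* neurons -0.68, -0.43 and -0.45. *Pcdh11x* was called at -1.13 in the *Slc32a1* neurons and was not called in the others. In both subsets 10 members were called lower: *Cdh2*, *Cdh7*, *Cdh8*, *Cdh9*, *Cdh10*, *Cdh11*, *Pcdh9*, *Pcdh10*, *Pcdh17* and *Pcdh19*. In neurons with UMIs of both transporter genes, a set added after the data were seen, 8 of 42 were called (4.53% of all genes tested), 7 lower and 1 higher. *Cdh23* was lower there (-1.47, adjusted p = 0.0167), against the rise in *Slc17a6* neurons, and at -0.65 (adjusted p = 0.494) in *Slc32a1* neurons. The higher one was *Cdh3*, with 0 UMIs in control and 23 in 8 of 9 *Eed-cKO* embryos (adjusted p = 0.0331, edgeR). Its *Eed-cKO* level was 2.67 times the limit set by 3 counts over the control group. The difference between the subsets was not tested.

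Since in 3 neuron clusters the share of neurons differed over 5 times between genotypes, the test was also run without them, which was chosen after the data were seen. Of 41 members tested, 18 were called and all were lower, where 7.41% of all genes tested were called. *Cdh9* was at -1.58, *Pcdh20* at -0.90, *Cdh10* at -0.78, *Pcdh17* at -0.75 and *Pcdh10* at -0.39, and *Cdh22* was at 0.45 (adjusted p = 0.0789). Within the other 10 neuron clusters, summed over embryos of a genotype and therefore without a test, *Pcdh19*, *Pcdh17* and *Cdh11* were lower in *Eed-cKO* in 10 of 10 clusters, and *Pcdh10*, *Pcdh8*, *Pcdh18*, *Cdh2* and *Cdh13* in 9 of 10. *Cdh9* was lower in 8 of the 8 clusters that held at least 10 UMIs of it and *Cdh20* in 7 of 7. *Cdh22* was higher in 9 of 10, and *Cdh4* was lower in 4 and higher in 6. Among these 10 clusters, with the 3 skewed ones not read, levels also differed widely in control embryos. *Pcdh19* reached 510 CPM in cluster 9, led by *Vgll2*, *Fezf1* and *Nr5a1*, and *Cdh4* reached 375 CPM in the same cluster. *Pcdh10* was 488 CPM in cluster 3, led by *Emx2* and *Cck*, and 97.3 CPM in cluster 13, led by *Neurod6*. *Pcdh17* had the highest of its 10 levels in cluster 13, with 292 CPM.

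**Figure D4:**
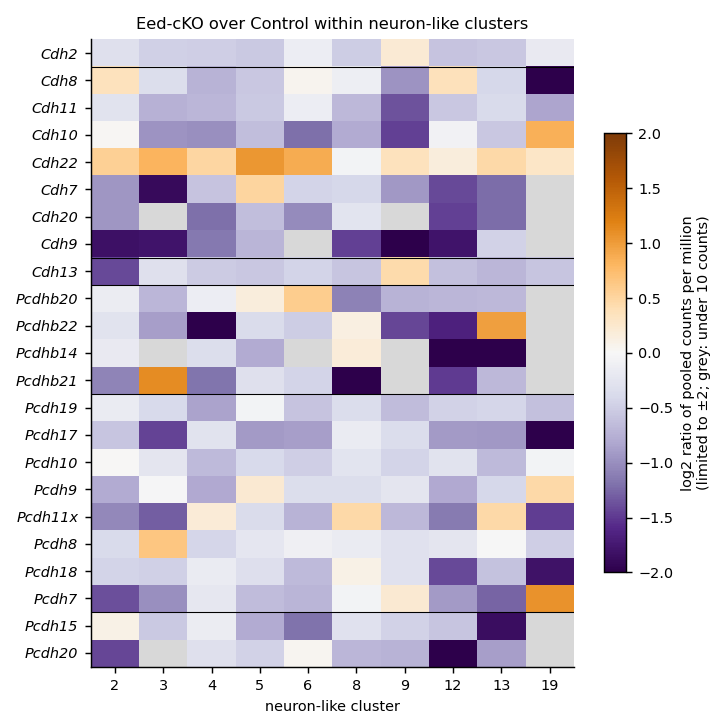
Heat map of the log2 ratio of the *Eed-cKO* to the control level (purple lower, orange higher, colours limited to ±2) in each of the 10 neuron clusters other than the 3 skewed ones, for the 23 members called in neurons. Each cell sums all embryos of a genotype, with no replicate error, and is grey under 10 UMIs. The lines of *Pcdh19*, *Pcdh17* and *Cdh11* are below 0 in all 10 clusters, and that of *Cdh22* is above 0 in 9 of 10.

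Several members are long genes, and long genes as a whole leaned towards lower levels. Among the 1815 tested genes of 100 kb or more in the GENCODE vM21 annotation, 14.3% were called lower in *Eed-cKO* neurons, with a median log2 change of -0.04. Of the 18 tested members of that length, 13 were lower and 1 higher. Among the 2789 genes under 10 kb, 5.63% were called lower with a median of 0.06, and of 17 members of that length, most of them beta protocadherins, 6 were lower. The part of length in these changes was not tested.

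Partners and relatives of the family were read from the same neuron test, in which 15.6% of all genes were called and 7.51% were lower. Of the catenins and other junction partners, 8 of 10 genes were tested and 1, *Ctnnd2*, which binds the tail of classical cadherins at synapses, was lower (-0.23). In the wider cadherin superfamily 12 of 18 were tested and 3 were lower: the giant cadherins *Fat4* (-0.63) and *Fat1* (-0.42), which act in planar polarity and growth, and the calsyntenin *Clstn2* (-0.54). Of 24 other neural adhesion genes, all tested, 14 were lower, among them *Ncam2* (-0.66), *Tenm1* (-0.65), *Nlgn3* (-0.56), *Lrrtm1* (-0.55) and *L1cam* (-0.44), and none was higher. Among 17 genes that regulate or process cadherins and protocadherins, such as *Ctcf*, cohesin subunits and *Adam10*, 15 were tested and 2 were lower, the WAVE complex genes *Wasf1* (-0.23) and *Nckap1* (-0.20). The counts among the catenins and the regulators are near the share over all genes.

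In glia and progenitors, which are also descended from *Sox1*-expressing cells, 34 members were tested, 11 fell and 1 rose, against 10.5% of all 13345 genes tested (3.93% lower, 6.54% higher). The median log2 change of the 34 was -0.74, against 0.02 over all genes. In 11 members the change was called in both neurons and glia. The largest fall was that of *Pcdh15*, from 49.3 to 135 CPM (median 81.0) in control to 0 to 22.5 CPM (median 8.80) in *Eed-cKO* glia, a log2 change of -3.00 ± 0.29 (SE; adjusted p = 7.61e-08). *Cdh13* went from 78.6 to 145 CPM (median 104) to 11.2 to 51.3 CPM (median 41.9), at -1.37 ± 0.20 (SE; adjusted p = 2.83e-05). *Cdh8* was 12.7 to 28.1 CPM and 0 to 11.1 CPM (-1.55 ± 0.43 SE, adjusted p = 0.0181). In these 3 genes all *Eed-cKO* embryos lay below all control embryos, which holds for 1.08% of all genes tested. *Pcdh10* was 238 to 348 CPM (median 315) and 59.0 to 243 CPM (median 176), at -0.92 ± 0.18 (SE; adjusted p = 0.00122), and its highest *Eed-cKO* embryo just reached the control range.

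The remaining calls in glia were *Pcdhb20* (-1.66), *Pcdh11x* (-1.41), *Pcdh8* (-1.27), *Pcdh17* (-1.03), *Cdh20* (-0.90), *Cdh10* (-0.83) and *Pcdh9* (-0.72). Of the lower calls in glia, that of *Cdh8* was lost without control embryo 1, that of *Cdh10* without control embryo 1 or 3, that of *Cdh20* without control embryo 1 or 4 and that of *Pcdh17* without control embryo 4. In contrast to neurons, *Cdh2* was 102 to 194 CPM in control and 36.5 to 202 CPM in *Eed-cKO* glia (-0.07, adjusted p = 0.913), and *Cdh11* was 90.0 to 231 CPM and 104 to 317 CPM (0.31, adjusted p = 0.455); whether glia and neurons differ was not tested. Markers of oligodendrocyte precursors, a cell type in which *Pcdh15* is known to be high, moved with these falls: all 5 were called lower in glia, and their sum went from 1515 to 2240 CPM to 336 to 867 CPM. *Pcdh15* was 234 CPM in control and 20 CPM in *Eed-cKO* cells of cluster 17, the cycling progenitor-like cluster that also held the precursor markers, and 9.08 and 1.95 CPM in the astrocyte-like cluster 18. The part of cell make-up in the change was not tested.

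*Cdh1*, E-cadherin of epithelia, rose in glia. No control embryo had a UMI of it (0 of 2250662), and 6 of 9 *Eed-cKO* embryos together had 63 UMIs, with up to 87.0 CPM. The *Eed-cKO* level was 10.4 times the limit set by 3 counts over the control group (adjusted p = 0.0266, edgeR). *Cdh3*, P-cadherin, had 0 and 30 UMIs, 4.97 times that limit, and was not called (adjusted p = 0.0866). Its *Eed-cKO* embryos had a median of 1.12 CPM and a maximum of 61.8 CPM. Markers of other cell types moved with *Cdh1* in glia. All 4 pituitary markers tested were higher, with a sum of 9.11 CPM in the median control embryo and of 0 to 2571 CPM in *Eed-cKO* glia, and with *Cga*, *Tshb* and *Pitx1* at 0 in all control embryos. Of the vascular leptomeningeal markers 3 of 5 tested were higher (sum 8.46 to 168 and 213 to 365 CPM), and of the tanycyte markers 4 of 6 (1286 to 2556 and 2729 to 5096 CPM). Their part in the *Cdh1* and *Cdh3* values was not tested. The *Cdh1* call was lost without control embryo 1 or 3. Of the 63 UMIs 45 came from cluster 16, which control embryos almost lacked. Without that cluster, an alternative added after the data were seen, 18 UMIs of *Cdh1* were left, 5.58 times the limit and still called (adjusted p = 0.0166). Of *Cdh3* 4 UMIs were left, 1.24 times the limit and too few to set apart from 0. In that set 10 of 29 members were called against 9.55% of all genes tested, 9 of them lower, with *Pcdh15* at -2.94 and *Cdh13* at -1.70. *Pcdh17*, *Pcdh8* and *Pcdh9* were no longer called there, and *Pcdh19* was (-0.87, adjusted p = 0.0490).

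Non-neural cells expressed another set of the family. *Cdh5*, VE-cadherin of endothelial junctions, made up 32.3% of all member UMIs in control non-neural cells. In neurons *Cdh5* averaged 0.143 CPM in control and 0.354 CPM in *Eed-cKO* embryos. It was 302 to 526 CPM (median 448) in control and 273 to 609 CPM (median 400) in *Eed-cKO* non-neural cells, a log2 change of -0.02 (adjusted p = 1). *Cdh11* was 43.6 to 333 CPM (median 77.3) and 122 to 347 CPM (median 183), at 0.35 ± 0.36 (SE; adjusted p = 0.785). Here 1 of 32 tested members was called and 3 were under an unadjusted p of 0.05, and 1.83% of the 12712 genes tested were called. On simulated data the test recovered 12.3% of changes of 1 on the log2 scale in these cells, against 96.4% in neurons. The median log2 change of the members was 0.05, against 0.01 over all genes. Summed over all members, levels were 1157 to 1485 CPM in control and 1030 to 1348 CPM in *Eed-cKO* embryos, which overlap.

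The gene called was *Pcdh12*, a protocadherin of endothelial cells, at 67.7 to 160 CPM (median 81.3) in control and 0 to 74.0 CPM (median 35.9) in *Eed-cKO* non-neural cells, a log2 change of -1.20 ± 0.28 (SE; adjusted p = 0.0273). Without control embryo 4 its change was -1.02 (adjusted p = 0.0759). Endothelial-like cells made up 42.6% of control and 25.4% of *Eed-cKO* non-neural cells, and vascular leptomeningeal-like cells 23.2% and 57.0%. The summed level of the 7 endothelial markers, 2269 to 4132 CPM in control and 755 to 3248 CPM in *Eed-cKO* embryos, moved the same way, and its part in the change was not tested. In endothelial-like cells alone *Pcdh12* was 98.5 to 224 CPM (median 194) and 63.1 to 227 CPM (median 117), and it was not called (-0.38, adjusted p = 0.926, 6 and 7 embryos with at least 5 such cells). In that set 0.183% of all genes tested were called, and 0.224% in the leptomeningeal-like cells alone, with no member in either. *Cdh5* averaged 697 and 859 CPM in endothelial-like cells and 310 and 274 CPM in the leptomeningeal-like ones (4 and 8 embryos with at least 5 such cells), which held 145 of its 672 UMIs in control and 450 of 1058 in *Eed-cKO* non-neural cells. *Cdh1* among non-neural cells came from the leptomeningeal-like ones, with 82 of 479056 UMIs in control and 46 of 1805410 in *Eed-cKO*. It averaged 150 and 32.2 CPM there with overlapping embryos, a log2 change of -2.45 that was not called (edgeR, adjusted p = 0.0705). *Pcdh18* was highest in pericyte-like cells, at 893 and 676 CPM.

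**Figure D5:**
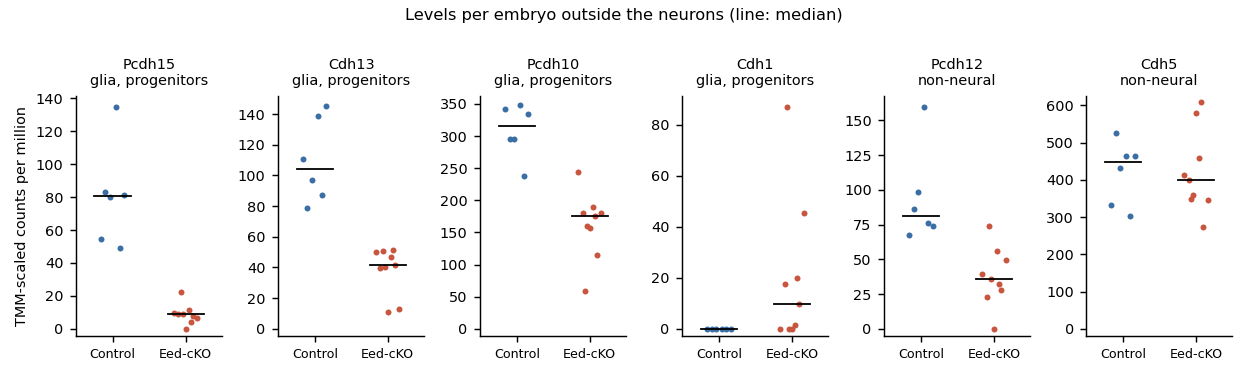
Level (CPM, linear axes) per embryo of *Pcdh15*, *Cdh13*, *Pcdh10* and *Cdh1* in glia and progenitors and of *Pcdh12* and *Cdh5* in non-neural cells, each point 1 embryo (6 control in blue, 9 *Eed-cKO* in red) and each line the group median. *Pcdh15* in glia lies at 49.3 CPM or more in control and at 22.5 CPM or less in *Eed-cKO* embryos, whereas *Cdh5* in non-neural cells overlaps over most of its range.

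Neuron markers gave counts in non-neural cells too, and the source of these counts was not tested. The 10 markers were found there at 9.36% to 26.9% of their level in neurons in control and at 11.3% to 20.6% in *Eed-cKO* embryos. Of the 32 members tested in non-neural cells, 13 were at or below the highest of these shares in control (*Pcdh19*, *Pcdh10*, *Pcdh17*, *Pcdh9*, *Pcdh11x*, *Pcdh8*, *Pcdh7*, *Pcdhb5*, *Cdh13*, *Cdh4*, *Cdh8*, *Cdh22* and *Cdh10*) and 3 in *Eed-cKO* embryos (*Pcdh17*, *Pcdh11x* and *Cdh8*). Whether the counts of those 3 are background was not tested. In *Eed-cKO* embryos *Cdh10* was at 45.2% and *Pcdh7* at 48.9% of their level in neurons.

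Whether the change in neurons differed from that in non-neural cells was tested in 1 model with the embryo as a block. Of 40 members tested, 0 were called by edgeR, 5 were under an unadjusted p of 0.05, and 1.32% of the 12485 genes tested were called. The median difference of the log2 changes (neurons minus non-neural cells) was -0.60, against -0.02 over all genes. *Cdh10* had the lowest, -2.51 (adjusted p = 0.0744), followed in p by *Cdh11* at -1.11 (adjusted p = 0.193). In the separate fits *Cdh10* was at -0.88 in neurons and 1.49 in non-neural cells, and *Cdh11* at -0.53 and 0.35. Neither rise in non-neural cells was called, and control non-neural cells held only 6 UMIs of *Cdh10*, in 4 of 6 embryos. The difference for *Cdh10* was called without control embryo 5, *Eed-cKO* embryo 1 or *Eed-cKO* embryo 4, and that for *Cdh11* without control embryo 6. The lower levels of the family in neurons were thus not shown to differ from the changes in non-neural cells at this depth.

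Over the main comparisons in neurons, in glia, in non-neural cells and between neurons and non-neural cells, 45 of the 57 members were tested at least once and 25 were called at least once, and 12 (*Cdh6*, *Cdh24*, *Pcdha2*, *Pcdha3*, *Pcdha5*, *Pcdha11*, *Pcdhac2*, *Pcdhb10*, *Pcdhb11*, *Pcdhb15*, *Pcdhga4* and *Pcdhgc4*) were too low in all of them. By position, 28 members lie on chromosome 18, which holds the 3 clusters as well as *Cdh2*, *Pcdh1* and *Pcdh12*, 7 on chromosome 8, 5 each on chromosomes 14 and 15, and the X chromosome holds *Pcdh19* and *Pcdh11x*.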

How the data were processed

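Raw UMI counts of 16510 genes in 14121 cells (48 libraries) were analysed as deposited in 1 file. The authors had made them with SureCell RNA Single-Cell software (STAR 2.5.2b, SAMtools 1.3 and mm10 per the submitters' processing notes) and had removed cells under 600 UMIs. Embryo and litter were read from the sample titles.

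Clustering used 2000 variable genes without cadherins and protocadherins, 30 principal components, 15 neighbours and resolution 1 (scanpy 1.11.5, leidenalg 0.10.2). A cluster was named when at least 3 markers of a type were in at least 10% of its cells and at least 2 times as high as in other cells (for neurons, as in the clusters of other types). The 3 clusters that had markers of both neurons and another type, or under 1 of 3 parts of the usual UMIs per cell with no marker among their 10 leading genes, stayed unnamed. These clusters, 1, 10 and 14, were left out, with 63, 373 and 688 control and 237, 187 and 330 *Eed-cKO* cells. The pericyte-like cluster 22, also under 1 of 3 parts, was kept for its leading markers. These rebuilt names may differ from those of the study. Doublets were kept. For each population, the counts of embryos with at least 5 cells were summed by embryo and fitted by the quasi-likelihood method of edgeR (version 4.0.16, R 4.3.3) with TMM factors and no covariate. Genes needed at least 15 UMIs in all, 2 in any 1 embryo and 1.5 as median log-CPM, which follows the pseudobulk filter of the study. The p-values were Benjamini-Hochberg adjusted over all genes tested, with a threshold of 0.05. The step was tested on simulated data with changes of 1 on the log2 scale. It recovered 96.4% of them in neurons, 42.4% in glia, 12.3% in non-neural cells and 17.6% for neurons against non-neural cells. Of the calls, 9.31%, 6.67%, 11.11% and 0% were false. DESeq2 1.42.0, limma 3.58.1 and other scalings, filters and cell sets were alternatives.

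Named were all members past the threshold, the 3 highest of each class in control neurons and the highest in non-neural cells, and up to 5 genes of each related list by size of change. *Cdh3*, *Cdh12*, *Cdh18* and the members named as untested or for their share of the level in neurons were named after their values were seen. The members and lists were chosen with earlier results of these data known. A limit for 0 counts (3 counts over the group) covers counting error of that group only. The count of the other group was taken as observed, so these ratios are not lower bounds.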

Additional observations from a re-analysis of the deposited data

Results flagged for a closer look

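In 6 of 71 sets of embryos (the members called in a population, by genotype), 1 embryo lay far from the others of its genotype by Dixon's gap rule. Chance gives this in about 1 of 20 sets of equally precise values, which these were not. *Eed-cKO* embryo 9, of 1 library, had the smallest sum in neurons, 498757 UMIs, where others had up to 4437102. The 0 CPM of *Cdh9*, *Pcdhb14*, *Pcdhb21* and *Pcdhb22* in neurons also came from embryo 9. In neurons, *Cdh10* was 33.7 CPM in *Eed-cKO* embryo 7 and 11.7 to 22.5 CPM in the other *Eed-cKO* embryos. *Eed-cKO* embryo 9 stood apart for both *Cdh13*, at 29.9 CPM against 59.8 to 71.3 CPM, and *Pcdh8*, at 87.7 CPM against 51.6 to 65.7 CPM. *Pcdhb14* was 7.47 CPM in control embryo 6 and 5.03 to 5.94 CPM in the other control embryos. In non-neural cells *Pcdh12* was 160 CPM in control embryo 4 and 67.7 to 98.7 CPM in the others, and in glia *Cdh8* was 28.1 CPM in control embryo 1 and 12.7 to 17.4 CPM in the others. The *Pcdh12* call was lost without control embryo 4, and the *Cdh8* call in glia without control embryo 1.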

How the results depend on the processing

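The count of members called in neurons was 23 and moved by over 1.5 times in 2 cell sets: it was 14 in *Slc17a6*-only neurons and 8 (7 lower, 1 higher) in neurons with both *Slc17a6* and *Slc32a1*, where 4.53% of all genes tested were called and *Pcdh7* (log2 change 0.31) and *Pcdh9* (0.17) were above 0. In non-neural cells the 1 call was lost (0 called) with sex as a covariate, in endothelial-like cells alone and in leptomeningeal-like cells alone. Leaving out 1 embryo at a time gave 19 to 24 calls in neurons, 9 to 13 in glia, 0 to 1 in non-neural cells and 0 to 1 for neurons against non-neural cells. Of the calls, 18 of 23 in neurons, 7 of 12 in glia and 0 of 1 in non-neural cells were made in every such set. Over all alternatives, 36 gene results had 979 further values: 890 kept direction and call, 87 kept direction alone and 2 reversed. *Cdh1* in glia was not called by limma. No paired analysis was possible because the genotypes share no litter.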
